A study of Mus musculus with 31 samples.

Results

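The genes described here are named for proteins of the cytosolic ribosome, and most of them encode one. They were chosen by symbol from the deposited count table: names that start with Rpl or Rps followed by a digit, together with Rpsa, Rplp0, Rplp1 and Rplp2, without the Rps6k kinases and without pseudogene names that carry -ps. Such a name was carried by 92 of the 48795 genes listed, and 89 of them had 10 or more counts in at least 13 libraries. The 89 comprised 43 genes of the large subunit, 31 of the small subunit, 3 of the stalk of the large subunit, 11 paralogs or retrogene copies, and Rps19bp1, which is named for a protein that binds RPS19 and is not itself a ribosomal protein. The first 3 groups are called the 77 core genes below. The 89 genes lie on 19 chromosomes, with 14 of them on chromosome 7. Rpl3l was nearest the count threshold, with 10 or more counts in 18 libraries and 4 to 26 counts per library. The 3 genes left out had at most 7 counts (Rpl39l), 1 count (Rpl10l) and 0 counts (Rps12l1) in any library.

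The study asked how exposure to deltamethrin, a pyrethroid insecticide, during development alters transcription in mouse brain. Total RNA from aliquots of homogenised brain was sequenced in 31 libraries, 13 labelled control and 18 labelled with the agent deltamethrin. The labels give no strain, sex, age, dose, time or batch for either group. They do not say whether the samples of a group came from separate animals or litters, so p-values measure the spread between these samples.

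The cytosolic ribosome is built from ribosomal RNA and one copy of nearly every ribosomal protein, the stalk proteins excepted. The mRNAs of these proteins are among the most abundant of most cells, and many of them start with a C followed by a run of pyrimidines, the 5' terminal oligopyrimidine (TOP) motif, through which the kinase complex TORC1 and the RNA-binding protein LARP1 control their translation and stability. In brain they are found in cell bodies and also in axons and dendrites. The genes have many processed pseudogenes, and reads from a near-identical copy can be counted on either gene.

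The start sites of 65 of the 89 genes were found by symbol in RefSeq's promoter table (GRCm38.p6). A pyrimidine run was searched for on the transcribed strand only, as a C within 5 bases of the annotated start that is followed without a break by C or T, with at least 5 bases in all. It was found at a start of 30 of the 65 genes (46.2%), and of 27 of the 57 core genes with an entry (47.4%), against 5718 of 27025 genes in the table (21.2%). The windows below hold 10 bases before the annotated start and 20 from it onward, with the run in capitals. The first 4 belong to genes with the highest slopes on the mitochondrial rRNA share described further on. Rpl35 and Rps6 carry longer runs, and the last 3 belong to genes with low slopes and have no such run. These windows are examples and do not show how runs and slopes relate. Rps6 itself had a low slope (0.47), and Rpl41, whose window is not printed, had a high one (0.90) without a run.
Rps27, chr3:90213629-90213658, minus strand: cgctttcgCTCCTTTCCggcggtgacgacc
Rps27rt, chr9:114982720-114982749, minus strand: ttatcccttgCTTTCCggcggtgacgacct
Rpl22l1, chr3:28805498-28805527, plus strand: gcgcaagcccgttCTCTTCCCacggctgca
Rpl39, chrX:37085203-37085232, minus strand: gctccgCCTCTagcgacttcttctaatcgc
Rpl35, chr2:39005112-39005141, minus strand: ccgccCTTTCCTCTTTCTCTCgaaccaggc
Rps6, chr4:86857348-86857377, minus strand: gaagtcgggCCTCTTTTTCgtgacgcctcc
Rpl24, chr16:55966265-55966294, plus strand: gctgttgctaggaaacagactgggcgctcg
Rpl7l1, chr17:46782637-46782666, minus strand: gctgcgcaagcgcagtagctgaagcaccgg
Rps19bp1, chr15:80264287-80264316, minus strand: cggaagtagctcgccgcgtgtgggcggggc
A missing run says only that these letters are not near the annotated start, which can lie some bases from the start used in brain.

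Libraries held 17570311 to 38680621 counts, of which 7.32 to 40.2% fell on mt-Rnr1 and mt-Rnr2, the 2 rRNAs of the mitochondrial ribosome. This share, referred to below as the mt-rRNA share, had a median of 12.9% in control and 14.8% in deltamethrin. One library, control replicate 2, stood apart, with the lowest total, the highest mt-rRNA share (40.2%) and a TMM scaling factor of 0.613. The main results are therefore also given without it. Brain markers were present in every library, where the summed level of 6 neuronal markers was at least 1682 CPM (counts scaled by library size and TMM factor) and that of 5 astrocyte markers at least 427 CPM.

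Together the 89 genes took 1.49 to 3.20% of counts in control libraries, with a median of 2.08%, and 1.14 to 2.57% in deltamethrin libraries, with a median of 1.80%. In CPM their summed level was lowest at 13959, 19803 at the median and 52287 at the highest in control, and 10865, 17493 and 30431 in deltamethrin. The groups overlapped over most of their range, with control replicate 2 alone above 30431 CPM. The large subunit contributed a median of 8880 CPM over the 31 libraries, the small subunit 8444 CPM, the stalk 1035 CPM and the 11 paralogs 217 CPM.

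Levels per transcript length differed widely among the genes. The small-subunit gene Rps14 was the highest at 2034 CPM per kilobase, followed by Rplp1, one of the acidic stalk proteins, at 1387 and Rpl41, which encodes the smallest ribosomal protein, at 1112 CPM per kilobase. The medians were 278 CPM per kilobase for the large subunit, 351 for the small subunit and 27.9 for the paralogs. Rpl24, a core protein of the large subunit, stood apart from the other core genes with 1.42 CPM per kilobase and 19 to 45 counts per library, while the next lowest, Rpl13a, had 35.8 CPM per kilobase. The lowest of all were the paralog Rpl3l, known from skeletal muscle and heart, at 0.339 and Rps3a3 at 4.70 CPM per kilobase. How reads that match several copies were counted is not given in the sources used here, and 8.37% of all counts on ribosomal protein names fell on names with -ps, so single-gene levels are uncertain where a near-identical copy exists.

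The genes moved together from library to library. Over the 3916 pairs of genes the median Pearson correlation of log2 CPM across the 31 libraries was 0.955, and it was 0.813 after the group and the mt-rRNA share had been taken out by regression. For 81 of the 89 genes the correlation with the mean of the other members was above 0.9. The genes that followed the others least were Rps4l (0.035), Rpl3l (0.51) and Rpl24 (0.69), of which Rpl3l and Rpl24 had few counts. All 77 core genes were highest in control replicate 2, and 74 of them were lowest in deltamethrin replicate 1. The ratio of the highest to the lowest library ranged from 1.66 for Rpl7l1 to 8.70 for Rps27, with a median of 4.58. These correlations are descriptions over 31 libraries that share total count and scaling, and carry no test.

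The comparison of deltamethrin with control addressed whether exposure changed the expression of these genes. No ribosomal protein gene passed an adjusted p-value of 0.05 in edgeR's quasi-likelihood test over 19529 genes, 0 of 89, where 0% of all genes passed. The smallest adjusted p-value among the 89 was 0.813, and the 2 groups' CPM ranges overlapped for each of the 89 genes, as for all genes (0% without overlap). Before adjustment 4 genes had a p-value under 0.05, all lower in deltamethrin (Rps21, Rpl6l, Rpl37 and Rpl36), against 2.37% of all genes lower at that level, and DESeq2 and limma voom gave 0 adjusted calls with 4 and 1 such genes. The fitted coefficient was negative for 88 of 89 genes, while 49.5% of all genes had a negative one, and the median log2 fold change was -0.26 against 0.0014 over all genes. For 83 of the 89 genes more than 9 of the 18 deltamethrin libraries lay below the control median, with a median of 12 and a range of 6 to 15 libraries. The same count was not made over all genes, so nothing particular to the 89 is read from it. The genes are not independent of each other, as the correlations above show, so the 88 are not 88 separate observations.

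Among small-subunit genes Rps27 (ENSMUSG00000090733, chromosome 3, 90212522 to 90213651, minus strand, GENCODE M21 on GRCm38), which encodes a zinc-binding protein, had the lowest fold change. It stood at 173, 285 and 1019 CPM (lowest, median and highest) in control and at 117, 231 and 493 CPM in deltamethrin. The groups overlapped, and 12 of 18 deltamethrin libraries lay below the control median. The fitted log2 fold change of Rps27 was -0.41 ± 0.22 (SE), and edgeR's unadjusted p was 0.0707. Rps21 had 123, 185 and 602 CPM in control and 83.4, 145 and 289 CPM in deltamethrin, again with 12 of 18 below the control median. Its log2 fold change was -0.41 ± 0.20 (SE). Rps6, the small-subunit protein phosphorylated by the S6 kinases downstream of TORC1, ranged from 222 over 300.2 to 556 CPM in control and from 197 over 283 to 376 CPM in deltamethrin, and its log2 fold change was -0.16 ± 0.11 (SE). Rpsa, also known as the laminin receptor, had medians of 517 and 445 CPM and a log2 fold change of -0.22 ± 0.14 (SE). Rps19, mutated in Diamond-Blackfan anaemia in people, had medians of 200.3 and 174 CPM and a log2 fold change of -0.31 ± 0.16 (SE). In each of these genes the highest control value came from control replicate 2, and the plot of CPM by group shows Rps27, Rps6 and Rpsa. Without that library the log2 fold changes were -0.16 for Rps27, -0.18 for Rps21, -0.067 for Rps6, -0.092 for Rpsa and -0.13 for Rps19.

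In the stalk, which recruits elongation factors, Rplp1 (ENSMUSG00000007892, chromosome 9, 61913284 to 61914542, minus strand) had 434, 633 and 2306 CPM in control and 311, 507 and 1067 CPM in deltamethrin, with a log2 fold change of -0.39 ± 0.20 (SE). Its partners Rplp0 (-0.22 ± 0.14) and Rplp2 (-0.25 ± 0.14) had smaller fitted log2 fold changes, and for each of the 3 genes 12 of 18 deltamethrin libraries were below the control median. Of the large subunit, Rpl41 (356, 567 and 1917 CPM in control, 257, 455 and 913 CPM in deltamethrin) had a log2 fold change of -0.37 ± 0.21 (SE) and Rpl35 one of -0.37 ± 0.19. Rpl5 and Rpl11, which with 5S RNA form the complex that binds the p53 regulator MDM2, had -0.15 ± 0.14 and -0.24 ± 0.19. Rpl3, which lies near the peptidyl transferase centre, had medians of 663 CPM in control and 621 CPM in deltamethrin and a log2 fold change of -0.15 ± 0.11. Rpl10 on the X chromosome, which is among the last to join the subunit, had medians of 158 and 155 CPM and a log2 fold change of -0.11 ± 0.10. For each of these genes the difference was within the spread between libraries. Without control replicate 2 the log2 fold changes of the stalk genes were -0.15 for Rplp1, -0.10 for Rplp0 and -0.14 for Rplp2. Those of the large subunit were -0.14 for Rpl41, -0.13 for Rpl35, -0.036 for Rpl5, -0.065 for Rpl11, -0.070 for Rpl3 and -0.044 for Rpl10.

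**Figure D1:**
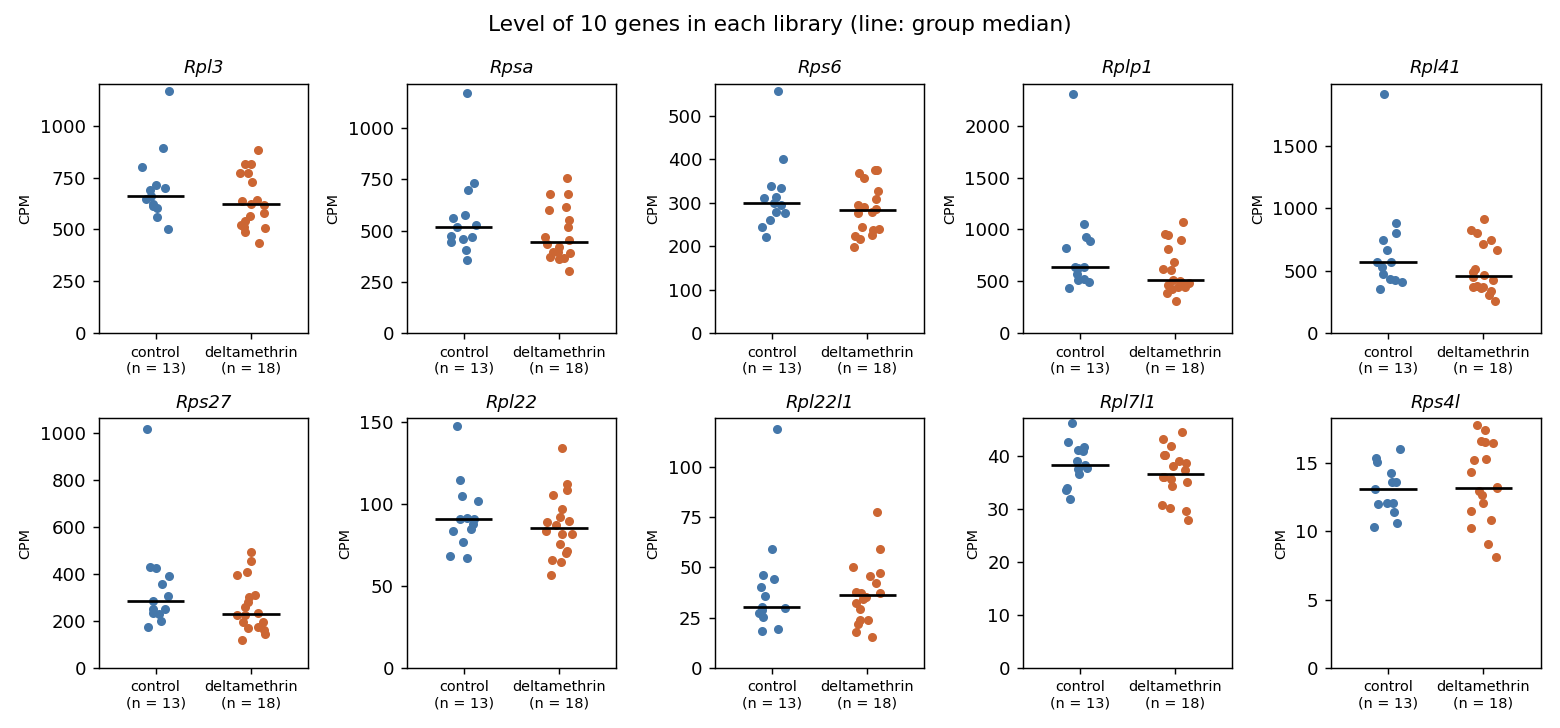
Level of 10 ribosomal protein genes, in CPM on a linear axis, in each control (blue, n = 13) and deltamethrin (orange, n = 18) library, with a line at the group median. In each panel the 2 groups overlap, and outside the panels of Rpl7l1 and Rps4l the highest point is control replicate 2, for example at 2306 CPM for Rplp1.

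The paralogs were more varied. Rpl22l1 (ENSMUSG00000039221, chromosome 3, 28805436 to 28807424, plus strand) is a paralog of Rpl22 whose expression the Rpl22 protein is known to restrain. It had a higher median in deltamethrin (36.0 CPM, from 15.3 to 77.3) than in control (30.001 CPM, from 18.4 to 119), while its fitted log2 fold change was -0.11 ± 0.22 (SE). Only 6 of 18 deltamethrin libraries were below its control median, the fewest of the 89 genes. Rpl22 itself had medians of 90.9 and 85.1 CPM and a log2 fold change of -0.10 ± 0.11. The level of Rpl22l1 as a percentage of Rpl22 was 27.6 at the lowest, 35.0 at the median and 80.5 at the highest in control, and 21.8, 40.7 and 57.6 in deltamethrin. Rps4l (ENSMUSG00000063171, chromosome 6, 148354656 to 148355598, plus strand) was the 1 gene of 89 with a positive coefficient, 0.05 ± 0.10 (SE), with a median of 13.2 CPM in both groups. It is annotated as a transcribed processed pseudogene. Its X-linked relative Rps4x had medians of 264 and 250 CPM and a log2 fold change of -0.15 ± 0.11. Without control replicate 2 the log2 fold changes were 0.14 for Rpl22l1, -0.027 for Rpl22, 0.039 for Rps4l and -0.066 for Rps4x, so that of Rpl22l1 turned positive.

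Rps27rt, a retrogene copy of Rps27, had a log2 fold change of -0.30 ± 0.22 (SE), and Rps27l, a paralog known as a p53 target, one of -0.22 ± 0.15. Across the 31 libraries the log2 CPM of Rps27rt and Rps27 correlated at 0.978, that of Rpl37rt and Rpl37 at 0.994, and that of Rps4l and Rps4x at 0.198. Rps27rt stood at 7.27 to 10.9% of Rps27 and Rpl37rt at 8.25 to 9.81% of Rpl37 over both groups. Such a range was not particular to these 2 copies, as Rps3a2 stood at 1.61 to 2.21% of Rps3a1. Whether reads were shared between the copies was not tested. Rpl7l1, which acts in ribosome assembly rather than as a structural protein, varied least of the 89 genes, with 31.9, 38.4 and 46.2 CPM in control and 27.9, 36.7 and 44.6 CPM in deltamethrin, and its log2 fold change was -0.08 ± 0.06 (SE). Without control replicate 2 the values were -0.081 for Rps27rt, -0.077 for Rps27l and -0.068 for Rpl7l1.

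The median log2 fold change of the 89 genes was -0.11 without control replicate 2, with 87 negative coefficients and 0 genes at an unadjusted p-value under 0.05. Of all 19623 genes in that fit 714 were at that level, in either direction. Leaving out each library in turn moved the median between -0.31 (without deltamethrin replicate 8) and -0.11. The number of the 89 genes lower at an unadjusted p-value under 0.05 ranged from 0 to 44 in these fits. The number of all genes at that level in the fit with 44 is not given here, so nothing is read from that range. With the log2 mt-rRNA share as a covariate the median was -0.18, with 87 negative coefficients, as 50.1% of all genes had. In that fit 66 genes were lower at an unadjusted p-value under 0.05, where 5.81% of all genes were, and 0 passed after adjustment by edgeR (0% of all genes), the smallest adjusted p-value being 0.48. Rps21 had -0.28 ± 0.09 (SE) and Rps27 -0.28 ± 0.09 in that fit, and Rpl22l1 0.03 ± 0.09. With the log2 total count as a covariate, an alternative added after the data had been seen, the median was -0.019 with 61 negative and 28 positive coefficients, and 0 genes had an unadjusted p-value under 0.05. With that covariate the negative sign was thus no longer shared by nearly all of the genes. Neither covariate fit was repeated without control replicate 2, so how far the 66 genes depend on that library was not tested. In bulk tissue fewer cells of a type and less RNA per cell cannot be told apart.

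**Figure D2:**
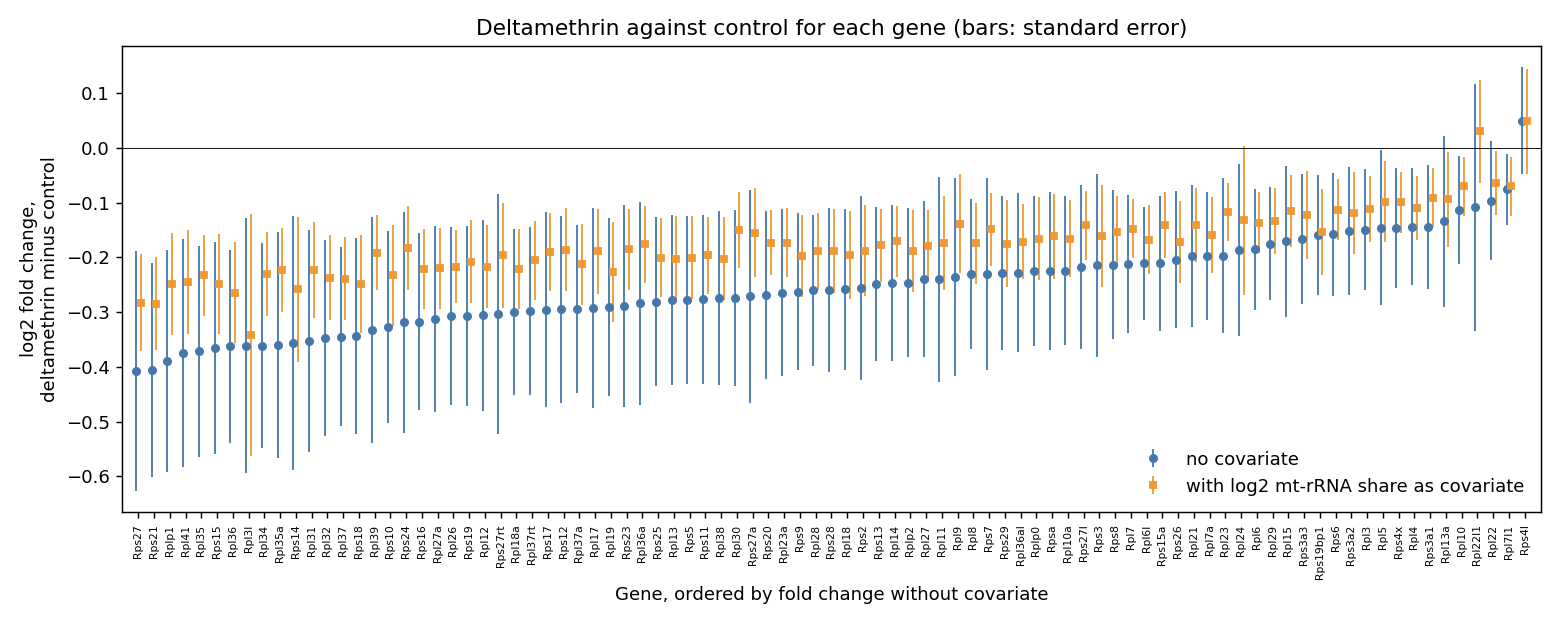
Fitted log2 fold change (deltamethrin minus control) of each of the 89 genes with its standard error, from edgeR fits with no covariate (blue circles) and with the log2 mt-rRNA share as a covariate (orange squares), ordered by the first. Without a covariate 88 of 89 values lie below 0, from -0.41 for Rps27 to 0.05 for Rps4l, and with the covariate the standard errors of most genes are smaller and the values lie nearer 0.

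The other comparison followed the same genes across the mt-rRNA share, with the group as a covariate. A slope here is the log2 change in level per log2 unit of the share, that is, per doubling. Of the 89 genes 87 had a positive slope at an adjusted p-value under 0.05 in edgeR's quasi-likelihood test and 0 a negative one, where 28.1% of all genes were called higher and 27.5% lower. The median slope of the 89 genes was 0.66, against 0.014 over all genes, and 4.40% of all genes had a slope at or above that median. The share is itself a large part of the library, and genes called in either direction made up most of the table, so the comparison describes libraries and not an exposure.

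The mean log2 CPM of the 89 genes and the log2 mt-rRNA share correlated at r = 0.888 (Spearman rho = 0.847) across the 31 libraries. Leaving out the 2 libraries whose share lay farthest from its median gave r = 0.854, and r was 0.898 within control and 0.913 within deltamethrin. Depth moved along the same axis: the same mean correlated with the log2 total count at r = -0.761, at -0.965 within control and -0.474 within deltamethrin, and the log2 total with the log2 share at -0.690. Without the 2 libraries whose log2 total lay farthest from its median the first of these was -0.627. Without the 2 libraries farthest in the share the last was -0.507. The share of counts on mitochondrially encoded mRNAs correlated less with the mean of the 89 genes, at r = 0.626 (rho = 0.630). With the log2 total count as a further covariate 86 of the 89 genes were called higher, with a median slope of 0.55. Of all 19529 genes 3614 were called higher and 3539 lower in that fit. The parts of depth and of the mt-rRNA share in these slopes were not otherwise separated.

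**Figure D3:**
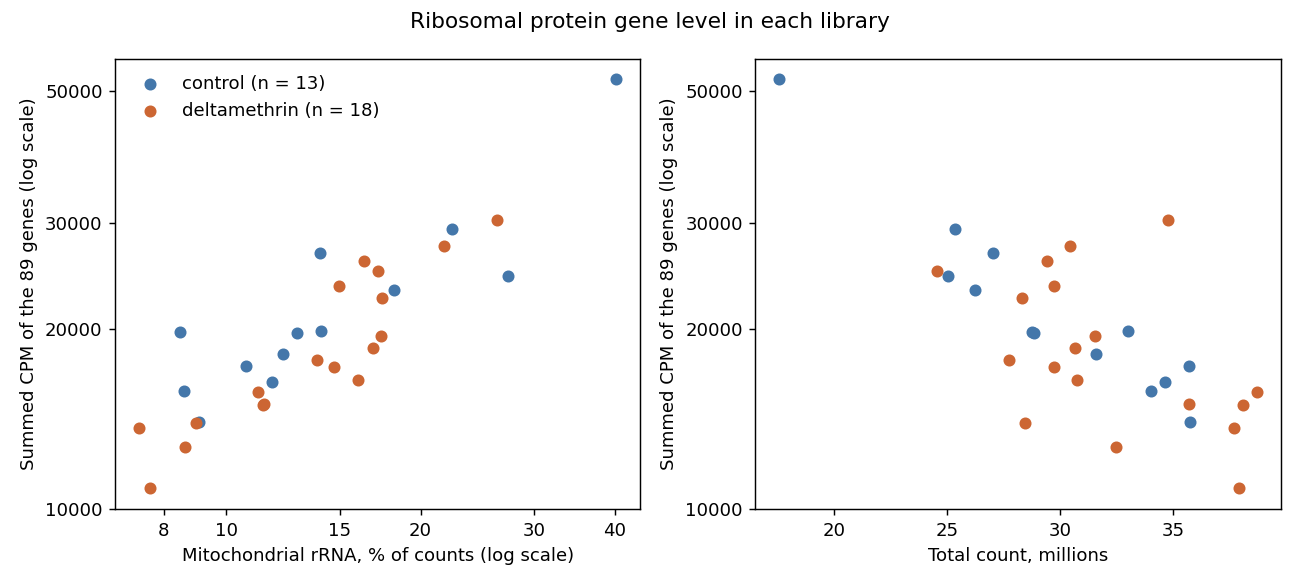
Summed level of the 89 genes in TMM-scaled CPM (log axis) in each library, against the mt-rRNA share in percent of counts (left, log axis) and against the total count (right, linear axis). Control replicate 2, at 40.2% and 17570311 counts, is the highest at 52287 CPM, and the remaining libraries of both groups (blue control, orange deltamethrin) rise with the share from 10865 to 30431 CPM.

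Every core gene followed the share. The slopes ran from 0.40 to 0.95 in the large subunit (median 0.65), from 0.46 to 0.97 in the small subunit (median 0.69) and from 0.55 to 0.86 in the stalk (median 0.55), and all 77 passed the threshold. Of the small subunit Rps27 had the highest slope, 0.97 ± 0.07 (SE, adjusted p = 7.81e-13 by edgeR), and Rps14 had 0.94 ± 0.11 (adjusted p = 9.34e-09 by edgeR). In the large subunit Rpl39, at the exit tunnel, had 0.95 ± 0.06, Rpl35a 0.93 ± 0.06 and Rpl41 0.90 ± 0.08. Lower slopes belonged to Rps6 (0.47 ± 0.05), Rpl3 (0.44 ± 0.05), Rpl10 (0.41 ± 0.05) and Rps4x (0.46 ± 0.05). Within the stalk Rplp1 (0.86 ± 0.08) lay above Rplp0 (0.55 ± 0.06) and Rplp2 (0.55 ± 0.06). Rpl5 (0.59 ± 0.06) and Rpl11 (0.82 ± 0.07) rose as well, as did Rpsa (0.59 ± 0.06) and Rps19 (0.70 ± 0.06).

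The paralogs spanned the whole range. Rpl22l1 had the highest slope of the 89, 0.995 ± 0.08 (SE, adjusted p = 2.27e-12 by edgeR), while Rpl22 had 0.46 ± 0.05. Rps27rt (0.97 ± 0.08) had the same fitted slope as Rps27 to 2 decimals, Rps27l had 0.67 ± 0.05, and Rpl36al, a retrogene relative of Rpl36a, had 0.63 ± 0.06. Rpl7l1 rose by 0.17 ± 0.05, the lowest slope that passed, with an adjusted p of 0.0033 by edgeR. The 2 genes that did not pass were Rpl3l (0.40 ± 0.20, adjusted p = 0.0922 by edgeR) and Rps4l (-0.02 ± 0.08, adjusted p = 0.848). Rps19bp1 had 0.39 ± 0.07. Rpl24 passed with 0.40 ± 0.12 at its 19 to 45 counts, and without control replicate 2 its slope was 0.28 with an adjusted p of 0.0645 by edgeR.

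**Figure D4:**
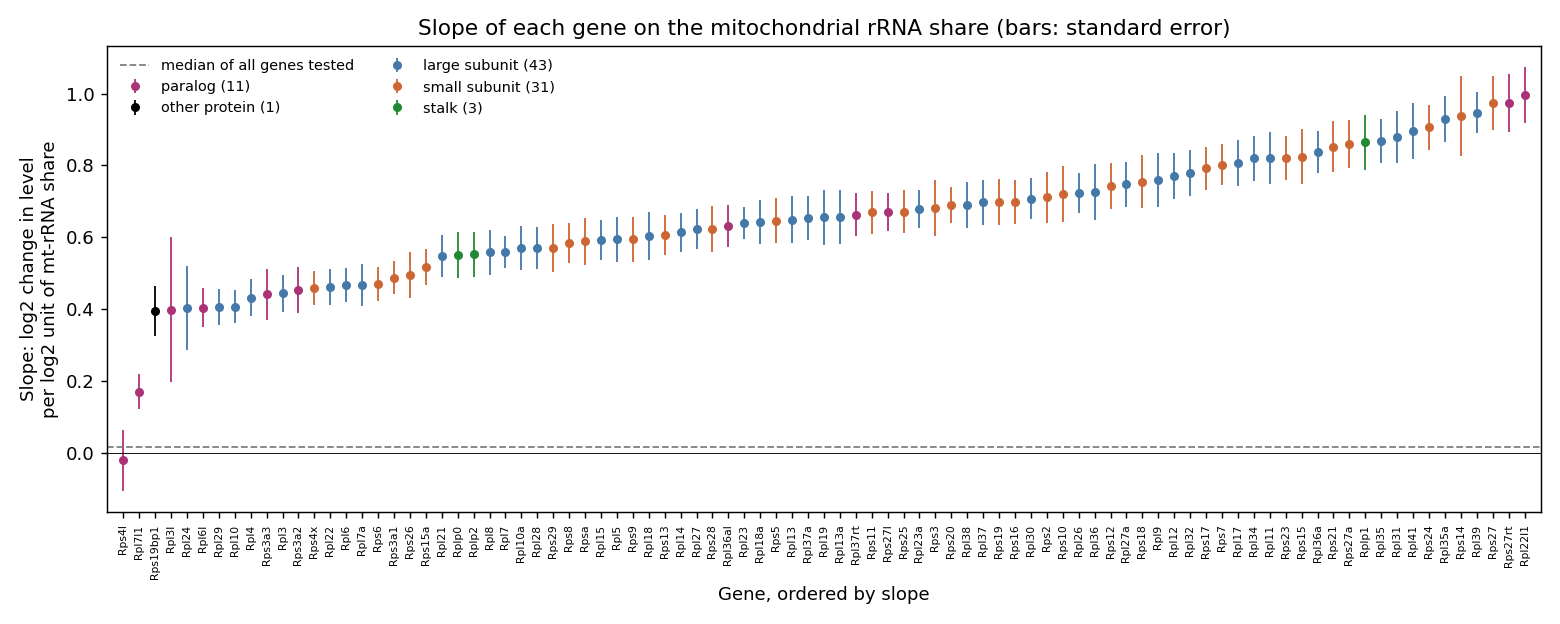
Slope of each of the 89 genes on the log2 mt-rRNA share with its standard error, from edgeR's fit with the group as a covariate, ordered by slope and coloured by the kind of gene; the dashed line is the median over all genes tested (0.014). All 77 core genes lie at 0.40 or above, Rpl22l1 is the highest at 0.995, and Rps4l at -0.02 is the 1 gene below 0.

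Genes with shorter transcripts tended to have steeper slopes. Across the 89 genes the Spearman correlation of slope with transcript length was -0.44, and with mean CPM it was 0.27, both given as descriptions over genes that share the same libraries. The 30 genes with the shortest transcripts (367.5 to 612 bases) had a median slope of 0.73, the middle 30 one of 0.63 and the longest 29 (860 to 3706 bases) one of 0.58. With a smooth correction for transcript length in each library the median slope was 0.42, with 85 genes called higher and 1 lower (Rps4l, -0.19). Of all 19529 genes 5033 were called higher and 5070 lower in that fit. Genes with a pyrimidine run at an annotated start had a median slope of 0.72 (30 genes) and those with an entry but no run 0.63 (35 genes). Rps27 and Rpl22l1, whose windows are printed above with runs of 9 and 8 bases, had the highest slopes of their kinds, but Rps6 with a run of 10 bases had 0.47 and Rpl41 without one 0.90.

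Fitted within control alone 85 of the 89 genes were called higher with a median slope of 0.61, where 4016 of 20274 genes in all were called higher. The slope was positive for 88 of the 89 there and negative for Rps4l (-0.17, adjusted p = 0.0852 by edgeR). Within deltamethrin alone 86 of the 89 were called higher with a median of 0.69, where 4859 of 20764 genes in all were, and all 89 slopes were positive. Without control replicate 2 the fit of both groups called 86 of the 89 higher with a median of 0.61, where 5194 of 19623 genes in all were called higher. The difference of slopes between the groups, tested as an interaction in edgeR, passed for 0 of 89 genes at an adjusted p-value under 0.05, where 6% of all genes passed, and 4 genes had an unadjusted p-value under 0.05 where 24.6% of all genes did. Without control replicate 2 it passed for 0 of the 89 and 0 of all 19623 genes, the smallest adjusted p-value among the 89 being 0.111 by edgeR. In that fit 19 of the 89 genes, each with the higher slope in deltamethrin, had an unadjusted p-value under 0.05, as did 4127 of all genes in either direction. With all libraries the nearest were Rps19bp1 (0.39 ± 0.12 higher in deltamethrin, adjusted p = 0.0521 by edgeR) and Rpl7l1 (0.25 ± 0.09, adjusted p = 0.0741).

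Ribosomal components outside the naming rule moved with the members. Fau, which encodes a ubiquitin-like protein fused to a ribosomal protein, had a slope of 0.67 ± 0.07, and Rack1, a scaffold on the small subunit, had 0.57 ± 0.06, both called higher by edgeR. Their log2 fold changes between the groups were -0.29 ± 0.16 and -0.21 ± 0.14, and neither was called. Of 102 genes with -ps names and enough counts, a list added after the data had been seen, 97 were called higher with the share and the median slope was 0.64. The share of counts on all 276 -ps names and the mean log2 CPM of the 89 genes correlated at r = 0.985 (rho = 0.985) across the 31 libraries, and at 0.984 and 0.985 within control and deltamethrin.

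Translation factors, many of which also have TOP mRNAs, were followed along the share as well, and each list's counts stand beside the 28.1% of all genes called higher and the 27.5% called lower. Of 18 other TOP genes, 12 of which also stand in another list used here, 13 were called higher with the share and 3 lower. Tpt1, which encodes the translationally controlled tumour protein, had 0.70 ± 0.05 and the nucleolar chaperone Npm1 0.24 ± 0.05. In a list of 10 elongation factors and related genes 5 rose and 4 fell: Eef1a1, the form made in most cells, had 0.40 ± 0.05 and Eef1b2 0.62 ± 0.06, whereas Eef1a2, the form of mature neurons and muscle, had -0.43 ± 0.06 and Eef2 -0.20 ± 0.05. Of 34 initiation factors 13 rose and 7 fell, the latter including the scaffold Eif4g1 (-0.46 ± 0.05). The 17 genes of TORC1 and translation control had 3 higher and 7 lower, with Larp1 at -0.53 ± 0.05 and Mtor at -0.45 ± 0.07. Of 39 ribosome biogenesis genes tested 8 rose, among them the RNA polymerase subunit Polr1d (0.54 ± 0.05), and 17 fell. Several of these shares lie near those of all genes, and nothing particular to the lists is read from them.

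The mitochondrial ribosome's own nuclear-encoded proteins followed at a lower slope. Of 77 such genes tested 64 were called higher and 1 lower, with a median slope of 0.30 against 0.66 for the cytosolic set, and that difference of medians carries no test. Between the groups 72 of the 77 had a negative coefficient, with a median log2 fold change of -0.12. In the comparison of deltamethrin with control 0 genes of each of these lists passed an adjusted p-value of 0.05 in edgeR's test.

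Markers of other cells were fitted in the same way, where 28.1% of all genes were called higher with the share and 27.5% lower. With the share 5 of 5 blood genes rose (median slope 0.61; Hbb-bs, a beta globin, 0.80 ± 0.10), whereas 5 of 6 neuronal markers fell (median -0.34; Rbfox3 -0.39 ± 0.05) and 5 of 5 astrocyte markers fell (median -0.39; Aldh1l1 -0.38 ± 0.05). Of 5 oligodendrocyte markers 1 rose and 3 fell (median -0.22), of 5 microglial markers 2 rose and 2 fell (median -0.098), of 4 endothelial markers 2 fell (median -0.15), and of 5 cerebellar granule cell markers 3 fell (median -0.31). Of 5 choroid plexus markers 2 rose (median 0.33), as did 2 of 5 striatal markers (median 0.23) and 2 of 6 nuclear RNAs (median 0.037). Several of these counts lie near the shares of all genes, and nothing particular to those lists is read from them. The summed level of the blood genes was at least 492 CPM in control and 380 CPM in deltamethrin, with medians of 646 and 630 CPM, and that of the neuronal markers had medians of 2856 and 2738 CPM. No list's defining genes were all at 0. Between the groups 5 of 5 blood genes had a negative coefficient with a median log2 fold change of -0.29, as had 5 of 5 choroid plexus markers (-0.12) and 5 of 5 striatal markers (-0.16). The coefficient was positive for 5 of 5 cerebellar granule cell markers (0.27), 5 of 5 astrocyte markers (0.13) and 4 of 4 endothelial markers (0.15). The neuronal (0.022), oligodendrocyte (-0.015), microglial (0.051) and nuclear RNA (-0.0037) lists held genes of both signs. In edgeR's adjusted test 0 genes of each list passed. The part of cell composition in the ribosomal protein levels was not tested.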

How the data were processed

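The deposited file gives counts per gene as whole numbers that the authors had not normalized, for the 31 libraries. Per the submitters' processing notes the tools were MultiQC, Trimmomatic, HISAT2 and SAMtools, with the GRCm38 build. The counting tool, its annotation, any use of strand and the treatment of reads that match several places are not given in the sources used here. Each column was matched to a sample by title, and the group was taken from the agent label. Gene IDs were matched to GENCODE M21 (48349 of 48795; all 89 members), which gave transcript lengths and gene types. Of the 89 members 84 are annotated as protein coding. Rps4l and Rpl37rt are annotated as transcribed processed pseudogenes, and Rpl6l, Rps3a2 and Rps3a3 as processed pseudogenes. Start windows come from RefSeq's promoter table.

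Genes were filtered with filterByExpr of edgeR (version 4.0.16, R 4.3.3), which kept 19529 genes and all 89 members. Libraries were scaled by TMM and tested with edgeR's quasi-likelihood test (robust), with Benjamini-Hochberg adjustment over all genes tested and a threshold of 0.05. The standard error is the size of a coefficient divided by the square root of F. The models were group alone, group with the log2 mt-rRNA share, and both with their interaction. Counts were also simulated, each gene drawn independently, with the spread left after fitting the group and the mt-rRNA share. No effect of the share was put in for the group comparison. There 67.3% of genes lowered by 0.4 on the log2 scale were called. In the other comparison 87.8% of genes with a slope of 0.7 were called. Most of the 89 genes also varied with the share, so 67.3% does not measure how often such a change in them is called. Alternatives were RLE or no scaling factors, leaving out mitochondrially encoded genes, other count filters, DESeq2 (version 1.42.0), limma voom (version 3.58.1), a length offset, other forms of the share, single groups, covariates, and leaving out each library in turn. The total count covariate and the list of -ps names were added after seeing the data.

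The members and lists were chosen with earlier results of these data known. Genes are named by a rule: the 5 highest and 5 lowest coefficients in each comparison, the 3 highest and 3 lowest levels per length, the 3 genes following the others least, a list of well-known members, and in each related list some well-known genes and the gene with the smallest p-value. Rpl13a, Rpl35a, Rpl36a, Rpl36al, Rpl37, Rpl37rt, Rpl36, Rpl6l, Rps3a1 and Rps3a2 were named after their values were seen.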

Additional observations from a re-analysis of the deposited data

How the results depend on the processing

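In the comparison of deltamethrin with control 0 ribosomal protein genes and 0 of all genes passed under each alternative run. The median log2 fold change of the 89 genes stayed negative, between -0.31 and -0.019. It was -0.16 with no scaling factors, which moved the median of all genes to 0.043, and -0.15 with the length offset. In the slope on the mt-rRNA share 85 to 88 of 89 genes passed under each alternative (77 of 77 among core genes alone). Of all genes 29.3% (no count filter) to 61.4% (adjusted p-value under 0.1) passed. The median slope of the 89 genes ran from 0.42 to 0.69. With no scaling factors it was 0.43 while the median of all genes moved to -0.19, and 84 genes were called higher and 1 lower, against 2218 of all genes higher and 9406 lower. Leaving out each library in turn left 86 to 87 genes called.

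The count of genes whose slope differed between the groups moved from 0 to 1 with RLE factors, to 2 at an adjusted p-value under 0.1 and to 19 with no scaling factors, where the median difference of all genes was 0.19. Of all genes 6% passed with RLE factors, 12% at an adjusted p-value under 0.1 and 19.4% with no scaling factors. Leaving out 1 library gave 0 to 2, and without control replicate 2 it was 0, where 0 of all 19623 genes passed. The share of all genes in the other such fits is not given here, so nothing is read from that range. The cause of these moves was not tested.

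The log2 fold change of Rpl22l1 turned positive with no scaling factors (0.017), the length offset (0.030), the mt-rRNA share covariate (0.030) and the total count covariate (0.28), and it ranged from -0.20 to 0.14 when each library was left out, the highest without control replicate 2. With the total count covariate Rpl41 (0.0062), Rpl10 (0.010), Rpl22 (0.036), Rps14 (0.035), Rpl39 (0.050), Rps27rt (0.039), Rps6 (0.00083), Rps27l (0.012), Rpl5 (0.057) and Rpl11 (0.051) also turned positive. The slope of Rpl7l1 was -0.042 with no scaling factors. That of Rps4l was 0.13 within deltamethrin alone and -0.057 to 0.027 when each library was left out. The causes were not tested.

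No paired analysis was possible because the labels give no replicate numbers and those used here follow the order of the samples. The planned comparison of paralog protein sequences was not run. Low counts limit Rpl24 and Rpl3l.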
